A study of Mus musculus with 10 samples.

Results

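Mature dendritic cells in mouse livers carrying colorectal cancer metastases were described from single-cell RNA-seq. They were 225 of 27707 barcodes that had at least 300 detected genes and at most 15% of their UMIs (unique molecular identifiers, 1 for each captured RNA molecule) from mitochondrial genes. A member had at least 1 UMI of Ccr7 and of Fscn1, at least 1 of Ccl22, Cacnb3 and Il4i1, and none of the T cell gene Cd3e or the B cell gene Cd79a. Viable 7AAD-negative cells had been sorted without antibodies, so no population was enriched. There were 5 libraries, each from 1 liver sample, made with the 10x 3' v3.1 kit and sequenced together with T cell receptor libraries. Control mice had received a control LV (lentiviral vector) and gave 2 libraries, numbered 11 and 25. IFNa mice had received an LV carrying interferon alpha and gave 2 libraries, 18 and 23. The group IFNa + aCTLA4 had interferon alpha combined with an antibody against CTLA-4 and gave 1 library, 22, called the combination library below. All groups had the same kind of tumour-bearing liver, and every Control mouse also carried a vector. The series title places the work under macrophage engineering in the living animal. Mouse strain, age, the tumour line, the vector's promoter and the cells that carried it are not given in the sources used here. The labels do not say that each library is a separate animal, so every p-value reflects the spread of these libraries and no more.

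Conventional dendritic cells take up antigen in tissues and carry it to T cells. On maturation they gain Ccr7, the chemokine receptor that guides them to lymph nodes, and Fscn1, an actin-bundling protein of their dendrites, while they lose many genes of the immature state. The mature state combines costimulatory ligands such as Cd80 and Cd40 with inhibitory ones such as Cd274, which encodes PD-L1. Type I interferon, to which interferon alpha belongs, signals through its receptor to promoters that carry an interferon-stimulated response element.

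The members numbered 18 in Control 11, 8 in Control 25, 85 in IFNa 18, 66 in IFNa 23 and 48 in the combination library. Control 25 was a small library, with 846 kept barcodes against 5532 to 9535 in the others, and its 8 members bound what can be said of it. Total counts per library ran from 10464216 to 69856071 UMIs, and the members' summed counts were 175820, 84740, 896967, 801397 and 552827 UMIs in the order Control 11, Control 25, IFNa 18, IFNa 23 and combination. That order of libraries holds for every list of 5 values below. Median depth per member was 8330 UMIs in Control 11 and between 9880 and 10971 in the other libraries. None of the 225 members had a T cell receptor contig, while 6505 of the kept barcodes did. Counted over the libraries, 798 barcodes had a sequence that also occurred in another library, and 7 of these barcodes were members. Levels are given as CPM, for which a gene's UMIs were summed over the members of a library and scaled to the same total in every library. In such sums, fewer cells with a gene and less of its RNA per cell cannot be told apart, so the number of cells with the gene is given beside the main results.

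Promoters that hold the motif searched here are shown for 4 genes of the interferon results. Isg15 is a ubiquitin-like interferon effector, and Ifit3 an interferon-induced antiviral protein. Apol7c is an apolipoprotein L family member, and Cxcl10 a ligand of CXCR3, a chemokine receptor of T cells. Each promoter is the 250 bases before the gene's start, 5′ to 3′ on the gene's strand, from RefSeq on GRCm38.p6. Capitals mark a pair of GAAA with any 2 bases between them, the core of the interferon-stimulated response element, searched on both strands and allowed to overlap.
Isg15: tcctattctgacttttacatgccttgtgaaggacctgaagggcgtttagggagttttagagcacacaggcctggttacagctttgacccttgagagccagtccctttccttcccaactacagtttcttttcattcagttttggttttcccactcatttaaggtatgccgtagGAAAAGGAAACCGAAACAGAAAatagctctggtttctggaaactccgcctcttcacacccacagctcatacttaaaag
Ifit3: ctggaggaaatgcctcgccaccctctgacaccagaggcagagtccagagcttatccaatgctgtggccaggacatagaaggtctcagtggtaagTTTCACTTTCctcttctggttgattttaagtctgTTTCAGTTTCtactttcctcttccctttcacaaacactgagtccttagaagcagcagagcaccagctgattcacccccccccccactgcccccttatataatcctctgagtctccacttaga
Apol7c: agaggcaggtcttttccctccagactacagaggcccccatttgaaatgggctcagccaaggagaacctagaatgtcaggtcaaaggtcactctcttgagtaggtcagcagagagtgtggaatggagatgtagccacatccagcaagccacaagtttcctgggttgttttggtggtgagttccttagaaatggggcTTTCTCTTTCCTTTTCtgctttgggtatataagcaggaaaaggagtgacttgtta
Cxcl10: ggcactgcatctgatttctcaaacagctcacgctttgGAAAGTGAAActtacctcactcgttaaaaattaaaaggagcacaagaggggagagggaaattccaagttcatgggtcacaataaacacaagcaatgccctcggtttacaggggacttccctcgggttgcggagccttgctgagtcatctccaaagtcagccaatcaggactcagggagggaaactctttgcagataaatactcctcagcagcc
The Isg15 window lies at chr4:156200819-156201068 on the minus strand and holds 3 overlapping matches on the gene's strand, beginning 78, 72 and 66 bases before the start. The Ifit3 window, chr19:34583279-34583528 on the plus strand, holds 2 matches on the opposite strand, 156 and 122 bases before the start. The Apol7c window, chr15:77533316-77533565 on the minus strand, holds 2 overlapping matches on the opposite strand, 55 and 49 bases before the start. The Cxcl10 window, chr5:92348890-92349139 on the minus strand, holds 1 match 213 bases before the start and 1 match to GGGAA and TTCC with any 1 base between them, a form of the NF-kB motif. Of 27025 mouse promoters of this length, 936 (3.46%) held the interferon core and 90 (0.333%) the NF-kB form. In the list of type I interferon response genes used below, 18 of 43 promoters (41.9%) held the core, and in the list of interferon gamma response genes 11 of 15 (73.3%) did. Of the genes called higher in mature cells of IFNa, 3 of 4 with an entry held it, and of those called higher with the combination 14 of 41. The windows of Irf7 and Il12b, also named below, held no match. Such a match describes the letters and is not a binding site or a cause.

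The rule genes were at high levels in every library, which is a description and not a test, since they chose the cells. Ccr7 stood at 3049, 2372, 3921, 3389 and 3989 CPM in the members, against 17.3 CPM in conventional dendritic cells of all libraries together. Fscn1 stood at 3145, 1971, 3799, 3530 and 3111 CPM, against 1.05 CPM. The conventional cells were the barcodes gated as cDC1 (198, by Xcr1, Clec9a and Cadm1) or cDC2 (468, by Cd209a, Flt3, Clec10a and Mgl2), 666 in all. The required companion genes varied more: Ccl22, a chemokine for CCR4-bearing T cells, stood at 586, 2254, 1210, 721 and 1067 CPM. Cacnb3, a calcium channel subunit, stood at 694, 956, 889, 726 and 724 CPM, and Il4i1, an amino acid oxidase, at 847, 1310, 894, 1076 and 1179 CPM. Ccl22 was lowest in Control 11 and highest in Control 25, so the Control libraries enclosed the others. In B-gated cells, with median depths of 3969 to 5405 UMIs, Fscn1 had a UMI in 0.746% to 4.84% of cells, the highest share being in the combination library. Ccr7, which B cells express themselves, had one in 57.3% to 79.1% of B-gated cells and in at most 0.565% of neutrophil-gated cells.

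All of Ccl22, Cacnb3 and Il4i1 were detected in 139 members, 2 of the genes in 66 and 1 in 20. The members with 1 of them were shallow, with a median of 5274 UMIs and 2 UMIs each of Ccr7 and Fscn1, against 11733, 47 and 43 UMIs for members with all. Relb, a subunit of the NF-kB family, was detected in 70% of the former and 99.3% of the latter. Just outside the rule, 21 barcodes had Ccr7 and Fscn1 but none of the companion genes, with a median of 1711 UMIs and 1 UMI of each gene. A further 124 barcodes met everything but had Cd3e or Cd79a, with a median of 19371 UMIs, and 58 of them came from the combination library.

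The label of mature dendritic cells held against genes the rule did not use. Cd83, a maturation marker, stood at 1263, 1168, 1424, 1335 and 1543 CPM, and Relb at 1046, 838, 1059, 1148 and 1210 CPM. Of the genes that define resting subsets, Xcr1 gave 7 UMIs over all members, Clec9a 38 (28 of them in the combination library) and Cd209a 22 (21 of them in IFNa 23). Ccl19, a ligand of CCR7 often listed with this state, gave 0, 0, 6, 2 and 1 UMIs under the gene identifier ENSMUSG00000071005. By subset genes, 16 members had UMIs only of Xcr1, Clec9a, Cadm1 or Wdfy4, 68 only of Cd209a or Sirpa, 34 of both sets and 107 of neither. At least 2 markers of another lineage were seen in 47 members, which were 2, 0, 19, 14 and 12 by library, and in 243 of the 666 conventional cells. That count took T, NK and B cells, neutrophils, basophils and mast cells, epithelial, endothelial, erythroid and liver cells, and plasmacytoid cells by a narrower set of genes, and where cells with markers of another lineage are left out below, it is these. It left out monocytes and macrophages, and at least 2 monocyte markers were seen in 2, 2, 17, 11 and 11 members. The summed monocyte markers stood at 182, 496, 769, 589 and 1322 CPM in the members, and the summed macrophage markers at 154, 720, 433, 453 and 324 CPM. At least 2 macrophage markers were seen in 4, 1, 8, 8 and 3 members. Vsig4 and Clec4f were at 0 in most libraries, and in IFNa 18 and IFNa 23 every other macrophage marker was detected.

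Mature dendritic cells made up 0.322%, 0.946%, 1.37%, 1.19% and 0.503% of kept barcodes. A further 14, 1, 25, 26 and 58 barcodes met the rule but for Cd3e or Cd79a, more than the 48 members in the combination library. No alternative counted them, so the shares hold for this rule only. For the combination library the direction against Control turned with the denominator, the log2 ratio being -0.33 over kept barcodes, 0.98 over barcodes without Cd3e and Cd79a and 1.40 over gated dendritic cells. The exact (Clopper-Pearson) 95% intervals, which cover counting error only, were 0.191% to 0.508% in Control 11 and 0.409% to 1.85% in Control 25. Both IFNa libraries lay above both Control libraries, with 1.28% ± 0.126 against 0.634% ± 0.441 (SD, n = 2 each), a ratio of 2.02. The exact permutation test gave p = 0.333 (two-sided), the smallest that 2 against 2 allows. Without Control 25 the log2 ratio was 1.99 and without Control 11 it was 0.44, so the size rested on the Control libraries. Without members that had markers of another lineage the means were 1.00% and 0.616%, and the groups overlapped (exact permutation p = 0.667).

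Measured against all gated dendritic cells, mature cells were 18 of 194, 8 of 53, 85 of 254, 66 of 241 and 48 of 149, which is 9.28%, 15.1%, 33.5%, 27.4% and 32.2%. The Control libraries were the lowest, and the combination library lay between the IFNa libraries. The IFNa mean was 30.4% ± 4.30 and the Control mean 12.2% ± 4.11 (SD, n = 2 each), a ratio of 2.50 with the same exact permutation p of 0.333. After each cell was thinned to 2000 UMIs, leaving out shallower cells, the means were 54.7% and 25.9% and the ratio 2.11. Set against cDC2-gated cells alone, the mature share was 40.3% ± 4.60 in IFNa and 14.2% ± 2.94 in Control (SD, n = 2 each), with 39.0% in the combination library. Set against cDC1-gated cells alone, it was 55.1% in IFNa and 47.4% in Control, and the libraries of the groups overlapped. The cDC2-gated share of kept barcodes was itself 1.90% in IFNa, 3.59% in Control and 0.787% in the combination library. These shares have no absolute count behind them, so more mature cells and fewer others cannot be told apart.

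**Figure D1:**
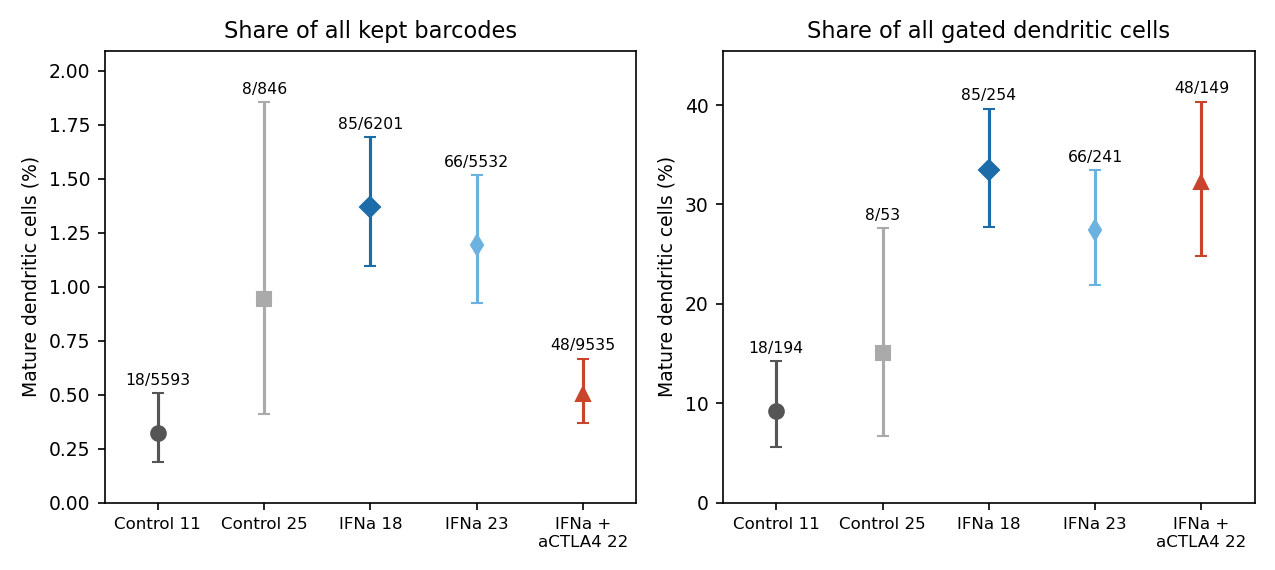
Mature dendritic cells as a percentage of all kept barcodes (left) and of all gated dendritic cells (right), 1 point per library, with exact 95% binomial intervals as bars and the counts above them. In both panels the IFNa libraries lie above the Control libraries, while the combination library is near the IFNa libraries only in the right panel.

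Mature and conventional dendritic cells of the same libraries were then compared gene by gene, over genes that neither gate had used. Both classes were chosen by RNA counts of the same cells, so these differences describe the gated classes. Of 8111 genes tested with edgeR's quasi-likelihood test, with the library as a block, 3719 (45.9%) passed an adjusted p of 0.05, 1853 higher (22.8%) and 1866 lower (23%) in mature cells. Against that background a call says little by itself, and the sizes and list medians carry the description. The median log2 difference over all genes was -0.02, and it was -0.13 with DESeq2's size factors. Fold changes below are log2 differences, mature minus conventional, with their standard errors (SE).

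Genes of the maturation programme stood far above conventional cells. In a list of costimulation and NF-kB genes all 15 tested rose, with a median log2 difference of 2.20, and in a list of mature dendritic cell genes from other tissues all 23 rose, with a median of 4.05. Relb differed by 3.69 ± 0.13 (adjusted p = 1.74e-11), with conventional levels between 71.8 and 141 CPM. Traf1, an adaptor of TNF receptors, stood at 1234, 968, 1110, 1116 and 1279 CPM and differed by 3.19. Cd80 stood at 319, 94.4, 259, 165 and 147 CPM and differed by 2.69 ± 0.21, the members of each library being above the conventional cells at 27.9 to 50.5 CPM. Cd86, the other CD28 ligand, differed less, by 0.54 ± 0.14, with members at 347, 165, 336, 343 and 347 CPM and Control 25 below its own conventional cells at 169 CPM. Cd40, the receptor for T cell help, stood at 210, 94.4, 273, 309 and 492 CPM and differed by 1.75 ± 0.19, and its conventional level was also highest in the combination library, at 234 CPM.

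Several genes were far more abundant in the mature cells. Fabp5, a fatty acid binding protein, stood at 4635, 3493, 3652, 3842 and 1894 CPM against 41.9 to 124 CPM, a difference of 5.44 ± 0.12. Socs2, a suppressor of cytokine signalling, stood at 319, 271, 492, 451 and 622 CPM against 3.33 to 10.5 CPM. Tnfrsf4, which encodes the costimulatory receptor OX40, stood at 290, 70.8, 240, 231 and 185 CPM and at 0, 2.20, 0, 0 and 3.33 CPM in conventional cells. H2-M2, a non-classical MHC class I gene, stood at 56.9, 23.6, 60.2, 46.2 and 63.3 CPM, and its conventional level was 0 in all libraries but IFNa 23, at 0.350 CPM. Nudt17, a nudix hydrolase family gene, stood at 148, 94.4, 365, 243 and 297 CPM and at no more than 0.704 CPM in conventional cells. Slco5a1, Syn3, Arc and Tmem150c, of which Syn3 and Arc are better known from neurons, differed by 8.60, 8.14, 7.84 and 8.22.

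Inhibitory and regulatory genes rose beside the costimulatory ones. In the immunoregulatory list 12 of 16 genes rose and 4 fell, with a median of 1.34. Cd274 stood at 711, 1027, 926, 852 and 968 CPM against 49.6 to 134 CPM and differed by 3.66 ± 0.16 (adjusted p = 1.2e-10). The second PD-1 ligand, Pdcd1lg2, stood at 188, 413, 271, 232 and 279 CPM against 16.2 to 40.6 CPM and differed by 3.55 ± 0.15. Cd200, a ligand of an inhibitory receptor on myeloid cells, stood at 483, 153, 343, 336 and 474 CPM against 5.60 to 10.6 CPM. The members of the list that fell were Havcr2, which encodes TIM-3, by 2.11, Lgals9, its ligand galectin-9, by 1.87, Vsir by 1.07 and Socs3 by 0.43. Tgfb1 fell by 1.38.

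Among secreted factors, Ccl5 and Il12b stood out. Ccl5, a chemokine for T cells and monocytes, stood at 3356, 5251, 3517, 4133 and 3913 CPM in the members and at 16.2, 2.20, 288, 161 and 156 CPM in conventional cells, a difference of 5.67 ± 0.59 (adjusted p = 1.37e-06). It had a UMI in 87.5% to 94.4% of members per library and in 2.99% to 9.86% of B-gated cells. Il12b, the shared subunit of IL-12 and IL-23, stood at 56.9, 0, 258, 349 and 852 CPM and at 2.46, 0, 44.8, 0.350 and 0 CPM in conventional cells, a difference of 5.30 ± 0.75. Il12b was detected in 48 of 225 members and in at most 0.142% of B-gated cells. Ccl17, a CCR4 ligand like Ccl22, stood at 210, 1121, 459, 454 and 34.4 CPM, above the conventional cells of its own library each time, and differed by 3.19 ± 0.24. Of 65 members with Ccl17, 60 also had Ccl22, but these cells were deeper than the rest, with medians of 11770 and 9486 UMIs. Ccl4, a chemokine for T cells and monocytes, was lower in mature cells, at 11.4, 11.8, 123, 142 and 45.2 CPM against 211 to 449 CPM, a difference of -1.71 ± 0.30. Cxcl9, a CXCR3 ligand, did not pass the test, with a difference of -0.16 (adjusted p = 0.437).

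Cytokine receptors made a mixed list, with 11 of 19 higher, 3 lower and a median of 0.55. Il15 and its presenting receptor were both higher, Il15 by 2.43 and Il15ra by 4.19, the latter at 154, 177, 234, 148 and 251 CPM against 3.29 to 16.6 CPM. Il7r stood at 683, 460, 394, 276 and 136 CPM and differed by 3.69. Il2ra differed by 6.46 and Tnfrsf9, which encodes the costimulatory receptor 4-1BB, by 5.81. The lower ones were Crlf2, the TSLP receptor, Ifnar2 and Ifngr1, chains of the interferon receptors.

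Antigen presentation split by class. In the MHC class I list 17 of 21 genes rose and 2 fell, with a median of 0.82. H2-K1, a classical class I gene, stood at 3185, 2407, 3996, 4586 and 4607 CPM and differed by 1.22 ± 0.12. Psme2, a proteasome activator subunit, differed by 1.99 and H2-Q7 by 1.77, although H2-Q7 and H2-Q6 are near copies and the counting could split their reads. In the MHC class II list 3 of 14 rose, 6 fell and the median was -0.02. H2-Ab1 stood at 2650, 2986, 2119, 3523 and 2712 CPM, below the conventional cells of every library, and differed by -0.75 ± 0.12. H2-Aa differed by 0.01 (adjusted p = 0.958). Ciita, the class II transactivator, and H2-DMa, a peptide-loading subunit, were among those that fell, H2-DMa by 1.46. Of the uptake list, Ly75, the receptor DEC-205, rose by 3.28.

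Among genes that fell were those of the cDC1 subset. In the cDC1 lineage list 5 of 6 genes tested fell, with a median of -4.03, and none rose. Wdfy4, needed for cross-presentation, stood at 68.3, 0, 31.2, 28.7 and 56.1 CPM against 575 to 783 CPM. Naaa, a lysosomal amidase, stood at 28.4, 11.8, 6.69, 14.97 and 18.1 CPM against 266 to 535 CPM, and Itgae, which encodes CD103, differed by -4.11. In the cDC2 list 2 of 7 rose and 2 fell, and Sirpa differed by 0.26 (adjusted p = 0.219). In the list of Toll-like receptors and adaptors 5 of 10 fell and 1 rose, Tlr3 by -4.76 and Myd88 by -1.52. All but 1 of 8 proliferation genes fell, Mki67 by 2.37 with members at 0, 0, 4.46, 18.7 and 9.04 CPM, and 11 of 225 members had UMIs of at least 3 such genes. Of genes induced by tissue dissociation, 11 of 18 fell and 2 rose, with a median of -0.68. Fos, an immediate early gene, stood at 216, 236, 330, 211 and 166 CPM, below the conventional cells of every library at 574 to 1006 CPM, and Klf6 rose by 1.98. The part of cell handling in the class differences was not tested. Of the other lineage lists, 6 of 8 plasmacytoid genes and 4 of 7 monocyte genes fell, and no T, NK or B gene was called. At least 2 genes of the narrower plasmacytoid set were seen in 103 of 666 conventional cells and in 9 of 225 members. At least 2 monocyte markers were seen in 81.3% to 90% of cDC2-gated cells and in 11.1% to 25% of members per library. The part of what the conventional gates let in was not tested. In the macrophage list 3 of 4 genes tested (C1qb, Timd4 and Apoe) rose, with a median of 2.08, and the part of stray macrophage RNA in them was not tested.

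Type I interferon response genes were on balance lower in mature cells. Of 54 tested, 30 fell and 5 rose, with a median of -0.58. Irf7, the interferon regulatory factor that amplifies the response, stood at 28.4, 59.0, 301, 505 and 854 CPM in members and at 167, 158, 1183, 1376 and 1901 CPM in conventional cells, a difference of -1.40 ± 0.16. Isg15 was higher in mature cells by 0.40 ± 0.15 (adjusted p = 0.0408). This median changed with the comparator. Against cDC2-gated cells alone it was -0.81, and against cDC1-gated cells alone, without Control 25, it was 0.03 with 11 higher and 20 lower. Interferon gamma response genes had 11 of 22 higher and 4 lower, with a median of 0.54, Gbp2 by 2.64 and Gbp5 by 2.97.

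**Figure D2:**
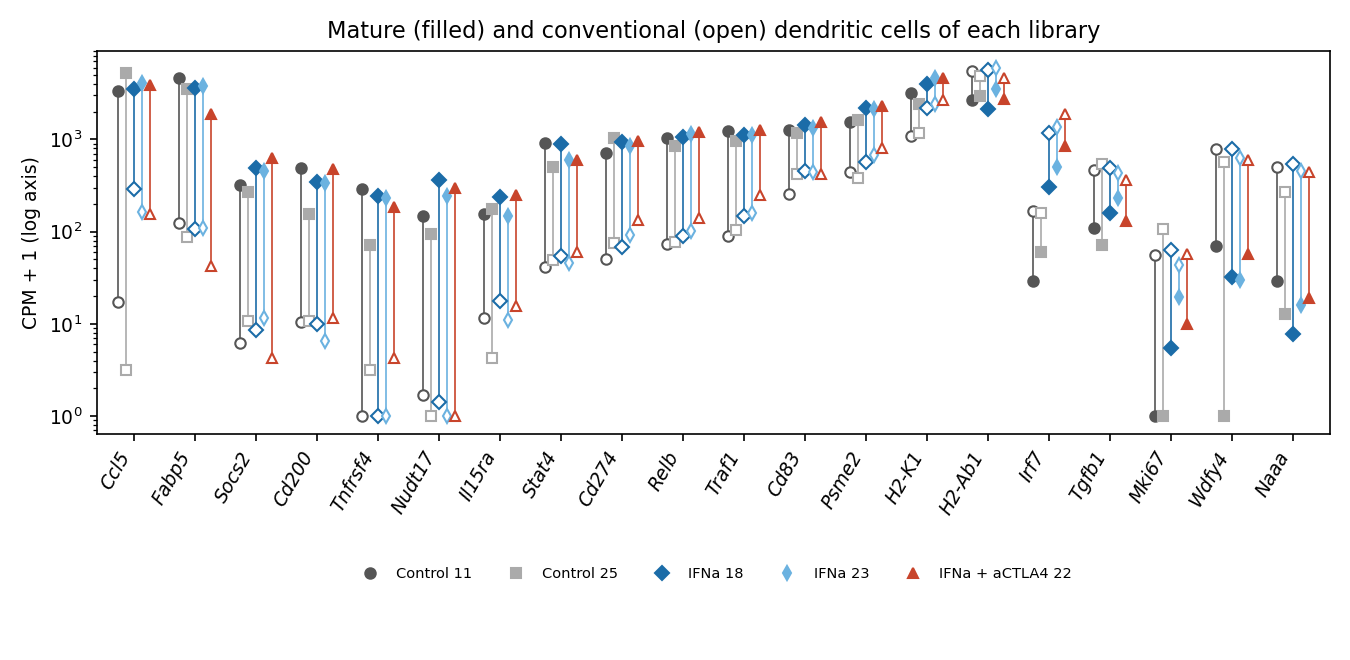
Levels of 20 genes in mature (filled) and conventional (open) dendritic cells as CPM + 1 on a log axis, with a line joining the classes of each library and colours and shapes marking the 5 libraries. Genes of the mature programme stand above the open symbols in every library, and Irf7, Tgfb1, Wdfy4 and Naaa stand below them.

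The next comparison asks what the interferon alpha vector changed within mature dendritic cells. Few genes passed the test, 3 of them from the type I interferon list. Of 7700 genes, edgeR's quasi-likelihood test with Benjamini-Hochberg adjustment called 7 (0.0909%), 5 higher (0.0649%) and 2 lower (0.026%), and DESeq2 called 6, with 5 higher and 1 lower. Isg15 stood at 210, 224, 932 and 1415 CPM in Control 11, Control 25, IFNa 18 and IFNa 23, and was detected in 8, 4, 70 and 59 members. Both IFNa libraries were above both Control libraries, a log2 difference of 2.41 ± 0.28 (adjusted p = 0.00954). Irf7, whose values are given above, was detected in 3, 2, 46 and 48 members and differed by 3.33 ± 0.45 (adjusted p = 0.0205). After thinning to 2000 UMIs Isg15 was detected in 11.1% and 50% of Control members and in 52.5% and 69.2% of IFNa members, and Irf7 in 0%, 12.5%, 25% and 41.5%.

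Ifit3 and Apol7c had no UMI in the Control members. Ifit3 stood at 99.2 and 157 CPM in the IFNa libraries, in 16 and 19 members (adjusted p = 0.0432). Their mean is 11-fold above 11.5 CPM, the level that 3 counts over the Control members would give, called the bound below. Apol7c stood at 173 and 183 CPM, in 12 and 13 members, 15.4-fold above that bound (adjusted p = 0.0104). A single cell held 53 of 155 Apol7c UMIs in IFNa 18 and 58 of 147 in IFNa 23. After thinning, Apol7c was detected in 10% and 10.8% of IFNa members. Of 18 and 8 Control members 0% had it, with exact 95% upper limits of 18.5% and 36.9%, which include the IFNa shares. The bound takes UMIs as independent and leaves out the sampling of cells, so folds against it are no lower limits. Apol7c had no UMI in any cDC1- or cDC2-gated cell or in any B-gated cell of the 5 libraries, the IFNa and combination libraries included.

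The remaining calls were Ccl4, Adam23 and Klk1, and single cells weighed on Ccl4 and Klk1. Ccl4, at 11.4, 11.8, 123 and 142 CPM, differed by 3.47 ± 0.55 (adjusted p = 0.0432), but 81 of the 114 UMIs in IFNa 23 came from 1 cell, and that library's level without it was 42.3 CPM. Adam23, a membrane protein of the ADAM family, stood at 478 and 260 CPM in Control, in 12 and 4 members, and at 103 and 88.6 CPM in IFNa, in 31 and 15 members, a difference of -2.03 ± 0.32 (adjusted p = 0.0432). Klk1, named after its values were seen because it completes the 7, had all 37 of its Control UMIs in 1 cell of Control 11. The 7 calls depended on what was pooled: no gene passed when the combination library was left out of the fit, or when members needed 2 of the companion genes, and Apol7c alone passed without members that had markers of another lineage (adjusted p = 0.012). Over 11 alternatives Apol7c passed in 9, Isg15 in 8, Irf7 in 6, Ifit3 and Adam23 in 5 each and Ccl4 in 4. Among these, leaving out barcodes with a T cell receptor contig removed no member, so it only repeated the main result.

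The type I interferon list stood higher as a whole in the IFNa members. Of its 54 genes, 3 were called, 44 had an unadjusted p under 0.05 against 4.4% of all genes tested, and 52 were higher in both IFNa libraries than in both Control libraries against 25.3% of all genes. Their median log2 difference was 1.63, or 1.61 with genes absent from Control at their bound, beside 0.03 over all genes. The 3 calls became 1, 2, 16, 6 and 0 without Control 11, Control 25, IFNa 18, IFNa 23 and the combination library, and 32 with no filter, while the median stayed between 1.35 and 1.99. As a percentage of each member's UMIs, the list had medians of 0.292, 0.353, 0.669, 1.05 and 1.39 by library, with single members between 0.0880 and 5.25. Interferon gamma genes had 0 of 22 called, 8 at an unadjusted p under 0.05 and a median of 0.92, and MHC class I genes 0 of 21 called, 10 unadjusted and a median of 0.43. The maturation genes had 0 of 15 called and a median of 0.12. Cd274 differed by 0.02 (adjusted p = 0.998), Ccl5 by -0.20 (adjusted p = 0.915) and Ccl17 by -0.48 (adjusted p = 0.914). Il12b differed by 3.00 ± 0.53 (adjusted p = 0.0717), resting on 10 UMIs in 4 cells of Control 11 and none in Control 25, and DESeq2 called it (adjusted p = 0.015).

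**Figure D3:**
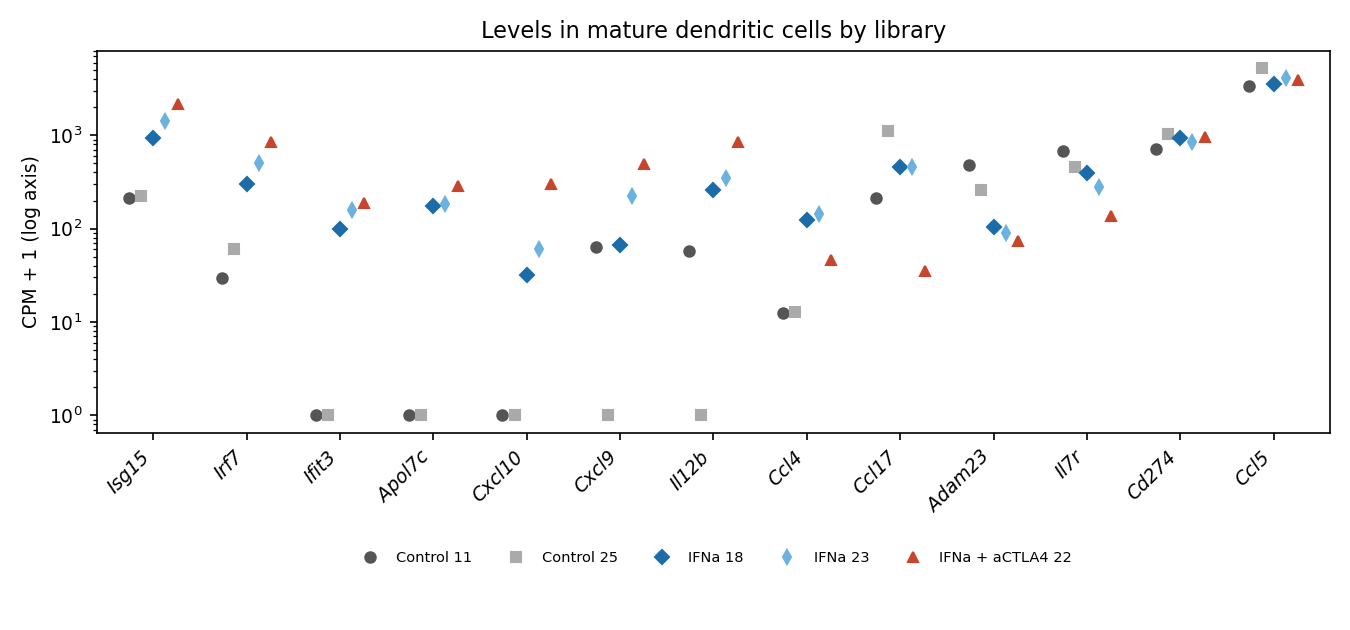
Levels of 13 genes in the mature dendritic cells of each library as CPM + 1 on a log axis, with colours and shapes marking the library. Isg15, Irf7, Ifit3, Apol7c and Cxcl10 are lowest in both Control libraries and highest in the combination library, while Cd274 and Ccl5 stay level.

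The combination library was set against the Control libraries, with the single library assumed to vary like the others. Genes of the type I interferon list, some interferon gamma genes, Cxcl10 and Il12b were higher. Of 7700 genes 69 (0.896%) passed, 55 higher (0.714%) and 14 lower (0.182%), of which 45 passed without members that had markers of another lineage and 37 with DESeq2. The type I interferon list had 18 of 54 called, all higher, with a median of 2.26 (2.18 with absent genes at their bound) beside 0.03 over all genes. The 18 calls became 9, 8, 29 and 27 without Control 11, Control 25, IFNa 18 and IFNa 23, 8 with 2 companion genes required and 43 with no filter, with medians from 2.13 to 2.71. All 54 lay above both Control libraries, against 34.6% of all genes. Isg15 stood at 2147 CPM in the combination library and differed by 3.30 ± 0.30 (adjusted p = 0.000638) and Irf7 by 4.43 (adjusted p = 0.00143). Apol7c, at 284 CPM in 8 members, was 24.7-fold above the Control bound, and Ifit3, at 186 CPM in 12 members, 16.2-fold above it. Oas3, an antiviral RNA sensor, stood at 0, 0, 63.5, 42.4 and 109 CPM, in the combination library 9.43-fold above the Control bound. Ifi213, of the interferon-inducible DNA sensor family, stood at 0, 11.8, 83.6, 137 and 204 CPM and differed by 5.63.

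Cxcl10 stood at 0, 0, 31.2, 59.9 and 302 CPM, lowest in Control and highest in the combination library. There it was 26.2-fold above the Control bound (adjusted p = 0.00307). Cxcl10 also had UMIs in 7.63% to 43.8% of neutrophil-gated cells, and in 0%, 0%, 14.1%, 15.2% and 33.3% of members. The part of free RNA in the members' counts was not tested. Cxcl9 stood at 62.6, 0, 65.8, 225 and 497 CPM, in 1, 0, 5, 14 and 29 members, and differed by 3.59 (adjusted p = 0.0573), which misses the threshold. After thinning to 2000 UMIs, Cxcl9 was found in 5.56%, 0%, 3.75%, 16.9% and 34.1% of members. All 49 members with Cxcl9 also had Isg15, and 20 of them had Cxcl10, with a median of 12030 UMIs in the members with Cxcl9 against 9764 in the others.

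Il12b differed by 4.50 ± 0.54 (adjusted p = 0.00254), while the share of members with it did not follow. Those members numbered 4, 0, 20, 14 and 10, which is 22.2%, 0%, 23.5%, 21.2% and 20.8%, and 198 of the 471 UMIs in the combination library lay in 1 cell. Interferon gamma genes had 6 of 22 called, with a median of 2.44. They were Gbp2 (2.56), Gbp4 (2.86) and Gbp6 (4.32), guanylate-binding proteins, Iigp1 (5.02), an immunity-related GTPase, Irf8 (1.52) and Cxcl10. Ly6a, which encodes the surface antigen Sca-1, stood at 79.6, 47.2, 270, 545 and 1845 CPM, in 3, 1, 25, 25 and 33 members, and differed by 4.75. Gzma and Cd8b1, genes of cytotoxic T cells, were called higher, at 30.0-fold and 11.5-fold the Control bound. Of their UMIs, however, 190 of 191 and 58 of 73 lay in 1 cell each. The summed T cell markers stood at 62.6, 47.2, 33.4, 33.7 and 289 CPM and the NK cell markers at 85.3, 11.8, 375, 185 and 499 CPM, and their part in the calls was not tested.

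Ccl17 and Il7r were among the genes that fell with the combination. Ccl17 stood at 34.4 CPM, in 7 of 48 members, below all other libraries, and differed by -4.19 ± 0.82 (adjusted p = 0.0396). It was found in 3 of 18 members of Control 11 and 4 of 8 of Control 25. A single cell held 21 of the 37 Ccl17 UMIs in Control 11 and 67 of the 95 in Control 25. Without Control 25, where Ccl17 was highest, the difference was -2.59 (adjusted p = 0.027), and with 2 companion genes required it no longer passed (adjusted p = 0.12). Il7r was lowest there too and fell by 2.11 (adjusted p = 0.0263), in 14, 6, 65, 49 and 21 members. Tnfrsf9 stood at 381, 189, 269, 193 and 59.7 CPM and fell by 2.34, and Fabp5 fell by 1.12. In the list of mature dendritic cell genes Fabp5 alone fell, while Apol7c and Txn1, a thioredoxin (2.21), rose, and the median of its 24 genes was 0.43. Pde4d, a cyclic AMP phosphodiesterase, stood at 637, 543, 487, 207 and 88.6 CPM and fell by 2.76. Dnah2 (-4.94), Alpk2 (-3.90), Mgl2 (-4.72), Car2 (-2.41) and Adam23 (-2.42) fell as well. A single cell held 19 of 22 Mgl2 UMIs in Control 11 and 3 of 5 in Control 25. For Dnah2 these were 13 of 23 and 7 of 8, and for Car2 10 of 18 and 8 of 16. Cd274 differed by 0.16 (adjusted p = 0.911), Ccl5 by -0.15 (adjusted p = 0.907) and Cd40 by 1.57 (adjusted p = 0.0856). Over 10 alternatives Apol7c, Cxcl10 and Dnah2 passed in all, Ifit3, Ccl17 and Ifi213 in 9, Il7r and Tnfrsf9 in 8, Pde4d, Adam23 and Oas3 in 7, and Car2 in 5. The alternative without T cell receptor contigs is counted here too, and it removed no member.

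Against IFNa alone, the combination library had 17 of 7700 genes higher (0.221%) and 0 lower by edgeR, although 190 (2.47%) were lower at an unadjusted p under 0.05, and DESeq2 called 1. Cxcl10 was 2.75 ± 0.35 higher (adjusted p = 0.00972), and Iigp1 (2.65), Gbp4 (1.84), Ly6a (2.19), Ly6i (3.06), Gm4951 (2.29) and the transporter Slco3a1 (2.26) were higher too. Of 22 interferon gamma genes 3 were called, with a median of 1.29, and of 54 type I interferon genes 0, with a median of 0.58. Cxcl9 differed by 1.80 (adjusted p = 0.369), Il12b by 1.50 (adjusted p = 0.179) and Ccl17 by -3.71 (adjusted p = 0.0891). Other calls were of genes of other cell types or single cells: all 43 UMIs of Tinagl1 and 143 of 204 of Ly6d came from 1 cell, and 4 of 7 plasmacytoid markers tested were called, among them Siglech and Ccr9. The summed plasmacytoid markers stood at 1109, 519, 526, 614 and 1675 CPM and the cDC1 markers at 711, 366, 611, 734 and 1724 CPM. Bst2, the highest plasmacytoid marker, is also in the type I interferon list, and Irf8, the highest cDC1 marker, in the interferon gamma list. The part of these shared genes in the sums was not tested. Without members that had markers of another lineage 1 gene passed, and Cxcl10 no longer did, with a difference of 3.04 (adjusted p = 0.11).

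Last, the IFNa effect in mature cells was set against that in conventional dendritic cells of the same libraries, by an interaction term with the library as a block. In Control 11, Control 25, IFNa 18 and IFNa 23 the conventional cells were 46, 4, 59 and 63 cDC1-gated and 130, 41, 110 and 112 cDC2-gated. A shift between these subsets and a change within them cannot be told apart, and no alternative ran this term on a single subset. The conventional cells had 260 of 11134 genes called between IFNa and Control (2.34%), 203 of them higher (1.82%), and 53 of 54 type I interferon genes were higher with a median of 1.80. The effect itself differed in 24 of 9178 genes (0.261%), 18 larger (0.196%) and 6 smaller (0.0654%) in mature cells. With DESeq2 5 genes passed, 1 larger and 4 smaller, and 4 of the 24 passed without cells that had markers of another lineage, Lyz2, H2-Q6 and H2-Q7 among them. None of the 54 type I interferon genes was among the 24, and their median difference in effect was -0.03 beside 0.10 over all genes. For Isg15 the difference was -0.71 (adjusted p = 0.667).

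Ccl5 was higher in the gated conventional cells of IFNa than of Control, while the mature level was high in both groups. In conventional cells it stood at 16.2 and 2.20 CPM in Control and at 288 and 161 CPM in IFNa, a log2 difference of 4.23, while mature cells had -0.20, so that the difference in effect was -4.23 ± 0.42 (adjusted p = 2.12e-06). Without cells that had markers of another lineage, T and NK markers among them, the difference was -0.64 (adjusted p = 0.98). H2-Q6 and H2-Q7, class I genes next to each other, had smaller effects in mature cells, by -2.12 and -1.72. H2-Q7 stood at 648, 684, 847 and 950 CPM in mature cells and at 91.5, 104, 391 and 475 CPM in conventional cells. H2-Q7 and H2-Q6 lost their calls without IFNa 23, with adjusted p of 0.1 and 0.054.

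Lyz2, the lysozyme of monocytes and macrophages, had IFNa effects of opposite sign in the classes, 2.19 in mature cells (adjusted p = 0.17) and -1.48 in conventional cells (adjusted p = 0.0158). In conventional cells Lyz2 stood at 1227 and 1277 CPM in Control and at 555 and 318 CPM in IFNa, and in mature cells at 45.5 and 201 CPM in Control and at 560 and 409 CPM in IFNa. The difference in effect was 3.82 ± 0.37 (adjusted p = 2.12e-06) and passed under all 11 alternatives, none of which left out cells with monocyte or macrophage markers. The alternative without T cell receptor contigs removed no cell from this comparison, so it could not differ from the main result. In mature cells 199 of the 502 UMIs in IFNa 18 and 15 of the 17 in Control 25 lay in 1 cell, and Lyz2 was detected in 38.9%, 25%, 24.7%, 13.6% and 18.8% of members, so the share of members with it was not higher in IFNa. Lrp1, Csf1r, Fcgr2b and Tgfbi, genes well known from monocytes and macrophages, also differed in effect, by 5.06, 2.62, 2.79 and 2.42. In conventional cells Lrp1 fell by 1.58 (adjusted p = 0.00309), Csf1r by 1.02 (adjusted p = 0.00944) and Fcgr2b by 0.91 (adjusted p = 0.0349), while in mature cells these had adjusted p of 0.373, 0.516 and 0.492. Tgfbi passed in neither class, and the uptake list had 4 of 14 genes called with a median of 2.73. The monocyte markers given above were also higher in the IFNa members than in the Control members, and their part in these genes was not tested. Plcl1, a phospholipase C-like protein, stood at 171, 142, 201 and 146 CPM in mature cells and at 43.0, 57.1, 15.8 and 10.1 CPM in conventional cells, and its difference in effect was 2.00, with a fall of 1.88 in conventional cells (adjusted p = 0.00736) and 0.10 in mature cells (adjusted p = 0.968).

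**Figure D4:**
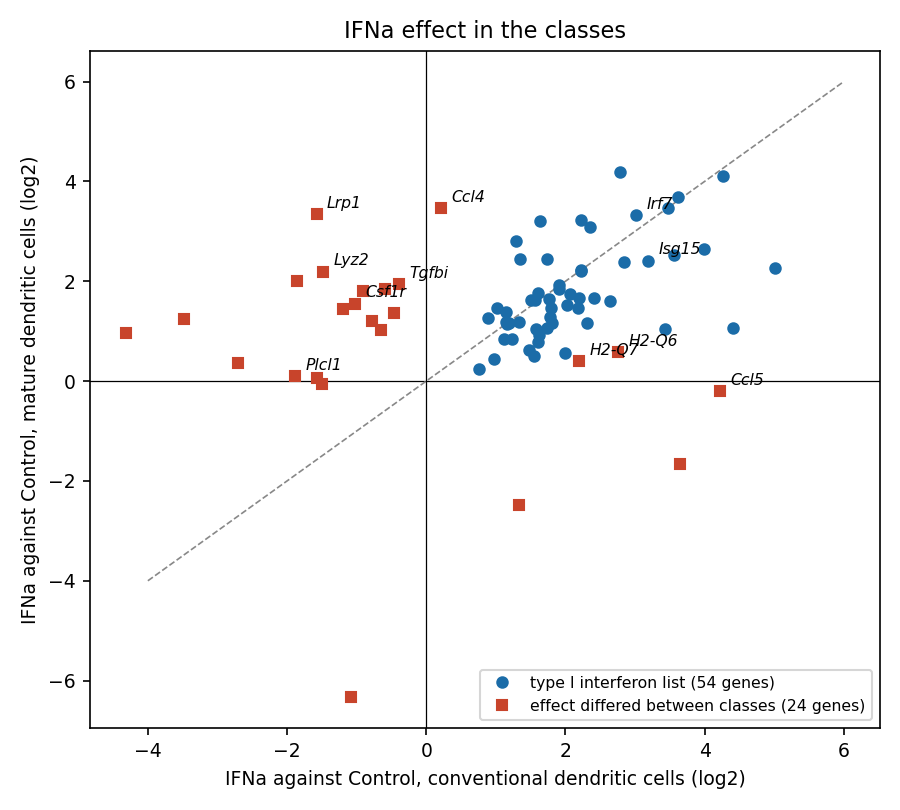
Log2 difference between IFNa and Control in conventional (x axis) and mature (y axis) dendritic cells, for 54 type I interferon genes (circles) and the 24 genes whose effect differed between the classes (squares). The dashed line marks equal effects, genes with no Control UMIs are drawn at their bound, and Ccl5 lies far below the line while Lyz2 lies above it.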

How the data were processed

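Single-cell 3' RNA and T cell receptor libraries of 5 samples were used. UMI counts per gene and barcode were deposited by the authors as filtered matrices, for 32285 genes, and the submitters' processing notes name Cell Ranger 7.0.1 and mm10. In the same way, the deposited T cell receptor contig tables hold UMI counts per contig. Groups follow the treatment label. Gates were rebuilt from UMIs: a barcode needed 300 detected genes and no more than 15% of UMIs from mt- genes, and doublets were not removed in the main analysis (Scrublet at 0.8% per 1000 cells, in scanpy 1.11.5, marked 1536 barcodes, 18 of them members, as an alternative). Counts were summed per library and class, in libraries with at least 5 cells of it, and tested with edgeR 4.0.16 (quasi-likelihood, filterByExpr, TMM, Benjamini-Hochberg adjustment) over all genes. The treatment fits used the members of all 5 libraries, and the class and interaction fits had the library as a block. DESeq2 1.42.0 was an alternative, with no filter, other gates, doublets removed, and each library left out. Treatments share no liver, so nothing pairs them. Exact permutation tests used scipy 1.17.1.

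The genes named by rule were up to 10 called genes per direction with the largest change, at least 50 CPM on average in 1 group, and no overlap between groups. Fixed genes were added, with up to 8 members of each list by mean CPM over the member libraries, called or not. Members, 31 lists and named genes were chosen with earlier results of these data known. Genes are named as in the tables, and 78 duplicated symbols were kept apart by identifier. On simulated counts for the class comparison 98.9% of genes changed 4-fold and 100% of those changed 16-fold were recovered. For IFNa against Control 59% and 92.9% were recovered, and for the difference in effect 31.3% and 75.8%. False calls numbered 7, 6 and 0 in these comparisons. The simulated spread was set by a formula and not estimated from these counts, so the rates need not hold for them.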

Additional observations from a re-analysis of the deposited data

Results flagged for a closer look

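The IFNa effect differed between mature and conventional dendritic cells, by a test of the difference itself (edgeR's quasi-likelihood interaction term with Benjamini-Hochberg adjustment), for the 14 named genes among 24 calls. The mature minus conventional difference, in log2 units, was positive for Lrp1 (5.06), Lyz2 (3.82), Ccl4 (3.48), Fcgr2b (2.79), Csf1r (2.62), Tgfbi (2.42), H1f0 (2.04), Plcl1 (2.00) and Msrb1 (1.92). Of these Ccl4 passed in mature cells, while Lrp1, Lyz2, Fcgr2b, Csf1r and Plcl1 passed as lower in conventional cells and not in mature cells. Nupr1 had a fitted value of 9.55, which is no bound, since its Control members held no UMI and its IFNa members stood at 24.5 and 38.7 CPM. It was negative for Ccl5 (-4.23), H2-Q6 (-2.12), H2-Q7 (-1.72) and Klk1 (-9.44). The value of Klk1 rests on 1 cell of Control 11 and was 0.89 after doublets were removed. Without cells that had markers of another lineage, 4 of the 24 passed, and the value of Ccl5 was -0.64.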

How the results depend on the processing

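The difference between IFNa and Control in the share of mature dendritic cells kept its direction under the 16 alternatives run for it. Among them, leaving out members with a T cell receptor contig removed none, so it repeated the main result. Calls between IFNa and Control (7) became 114 with no filter, 0 with at least 2 companion genes, 1 without cells that had markers of another lineage, and 0 to 49 when a library was left out (22, 13, 49, 23 and 0 without Control 11, Control 25, IFNa 18, IFNa 23 and the combination). For the combination against Control (69) they became 37 with DESeq2, 280 with no filter, 27 with at least 2 companion genes, 45 without other-lineage cells and 40 to 122 with a library left out (40 without Control 25, 122 without IFNa 18 and 118 without IFNa 23). For the combination against IFNa (17) they became 1 with DESeq2, 138 with no filter, 1 without other-lineage cells and 14 to 61 with a library left out (61 without Control 11, 33 without Control 25 and 29 without IFNa 23). For the difference in effect (24) they became 5 with DESeq2, 60 with no filter, 15 with doublets removed, 4 without other-lineage cells and 10 to 125 with a library left out (90 without Control 11, 125 without Control 25 and 10 without IFNa 23). Without the replicate block, which is the library, it had 5 calls, and the class comparison had 3774 against 3719 with the block. Over all its alternatives the class comparison had 2846 to 4460 calls. The cause of these changes was not tested, except that fewer samples enter when a library is left out.

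Directions that turned were mostly of genes that had not passed. In the class comparison Cxcl9 was 1.32 against cDC2-gated cells, and Cxcl10 1.27 and Ifit3 1.78 against cDC1-gated cells. H2-Aa was -0.0689 with DESeq2, -0.11 with no filter, -0.0365 with doublets removed, -0.0663 with at least 2 companion genes, -0.106 without other-lineage cells, -0.19 to 0.0664 with a library left out and -0.38 against cDC1-gated cells. Sirpa was -0.0627 with doublets removed, -0.0851 without other-lineage cells and -0.28 against cDC2-gated cells. For IFNa against Control, Cd274 was -0.0267 with DESeq2 and -0.26 to 0.33 with a library left out, when Ccl5 ran from -0.508 to 0.20 and Ccl17 from -1.345 to 1.13. For the combination against Control, Cd274 ran from -0.12 to 0.46 and Ccl5 from -0.46 to 0.24 with a library left out, and Gzma was 0 with at least 2 companion genes. The difference in effect of Klk1 was 0.89 with doublets removed and ran from -10.05 to 0.0836 with a library left out.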
